A study of Mus musculus with 8 samples.

Results

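Intermediate filament and lamin genes were examined in C2C12 myoblasts, an immortalised mouse line that proliferates in serum-rich medium and fuses into myotubes when serum is withdrawn. The members are 9 listed genes, of the 27179 genes in the expression table: desmin (Des), vimentin (Vim), nestin (Nes), synemin (Synm), the light and medium neurofilament genes (Nefl, Nefm) and the lamin genes Lmna, Lmnb1 and Lmnb2. They were chosen by name, with earlier results of these data known. Proliferating cultures (GM) were collected at 50% confluence in high glucose medium with 10% fetal bovine serum. Differentiating cultures (3d DM) had passed 90% confluence and then spent 3 days in the same base medium with 2% horse serum. No gene was altered and no drug was given in either state. Each state had 2 input libraries of poly(A) RNA and 2 libraries from the RNA bound by an antibody to N6-methyladenosine (m6A), the method called MeRIP-seq. The sources used here do not say whether the replicates were separate cultures, so p-values measure only the spread between these samples. The share of fused cells in 3d DM is not given in the sources used here either, and in bulk RNA fewer cells of a type and less RNA per cell cannot be told apart.

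Intermediate filaments are rope-like polymers of proteins that share a central α-helical rod. Cytoplasmic members build the filament network that gives a cell its mechanical strength, and in muscle the network passes from vimentin and nestin in myoblasts to desmin, which ties neighbouring Z-discs together in the fibre. Lamins form the mesh under the inner nuclear membrane, where Lmna encodes lamins A and C by alternative splicing and Lmnb1 and Lmnb2 encode the B-type lamins. Neurofilament genes are best known from axons, and nestin from neural and muscle progenitors. m6A is the most common internal mark of mRNA, written by the METTL3 and METTL14 complex, mostly within short sequences around GGAC, in long exons and near stop codons.

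The sequences searched for in the member transcripts were GGACA or GGACC or GGACT, read on the transcript strand only, and all windows below come from the mm10 genome with these letters in capitals.

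The first windows are shown because they lay in peaks of all 4 lists on 3 members. The Lmna window spans the lamin A stop codon, with the A of GGACC 7 nt into the 3′ UTR, and the A of the Des window lies 636 nt into the 3′ UTR.
Lmna, chr3:88482055-88482079, minus strand: atgtaatctgGGACCtgccaggcag
Des, chr1:75367674-75367698, plus strand: gcaggggcctGGACAgaaacaataa
Lmnb2, chr10:80905190-80905214, minus strand: tggtggaggtGGACAgcagccggca

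Nestin differs from the other members in its long tail of repeats, and 300 bases of it are shown because the searched letters recur there at an even spacing. In this stretch of the last exon 6 successive sites lay 66 nt apart, 5 of them in the bases printed. Among the first 5 units, those that alternate were nearly the same, at 63, 64 and all 66 of 66 bases, while neighbours matched at 39 to 41. The last unit broke this pattern, at 46 to 48 bases with every other. Short reads from such a stretch can fit more than 1 unit. All of it lay within the peak of every list.
Nes, chr3:87976559-87976858, plus strand: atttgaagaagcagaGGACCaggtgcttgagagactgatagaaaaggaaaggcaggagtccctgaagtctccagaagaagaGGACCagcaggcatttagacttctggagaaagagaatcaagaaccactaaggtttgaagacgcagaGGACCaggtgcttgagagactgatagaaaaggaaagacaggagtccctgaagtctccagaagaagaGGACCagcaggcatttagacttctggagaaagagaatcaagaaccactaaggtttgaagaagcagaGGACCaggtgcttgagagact

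Input RNA is given as the normalized value of the deposited table, in which every library has nearly the same total whatever its depth, which is unknown. Cell identity was checked first. Myogenin (Myog) was 1008 and 221 in GM against 5392 and 11502 in 3d DM, and embryonic myosin (Myh3) was 1068, 273, 33485 and 51674 in GM replicates 1 and 2 and 3d DM replicates 1 and 2. The proliferation gene Mki67 ran the other way, at 3586, 3659, 446 and 760.4. Of the glial, epithelial and endothelial markers, 10 genes in all, none reached the minimum of 2 cpm, a share of the library total that is 25.1 in this table, in 2 libraries, whereas 3 of 4 fibroblast markers did. One entry without a gene symbol took 24.4% to 41.3% of each column.

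Of the 9 members, 8 passed the minimum and were tested with limma among 11406 genes, and Synm did not pass. At an adjusted p under 0.05, 5 of the 8 differed between the states, against 17.0% of all tested genes. Des was the 1 member called higher in 3d DM (7.01% of tested genes), and Vim, Nefl, Nefm and Lmnb1 were the 4 called lower (9.96%). Nefl and Nefm passed the minimum only through their GM libraries and so had to differ. Of the 6 members over the minimum in all 4 libraries, 3 were called. In all 8 tested members the GM and 3d DM values did not overlap, as for 53.8% of all tested genes. The deposited values lie lower in 3d DM as a whole, with a median log2 difference of -0.22 over all tested genes, so each difference is given as deposited and after rescaling by median-of-ratios factors, which bring that median to 0.01. After rescaling 23.2% of tested genes were called, 12.0% higher and 11.2% lower, and 6 members. In the fit of the deposited values limma took the error from the trend over genes (prior degrees of freedom infinite), so those small p-values do not measure a gene's own 2 replicates. The rescaled fit gave more weight to each gene's own spread (prior degrees of freedom 3.82).

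**Figure D1:**
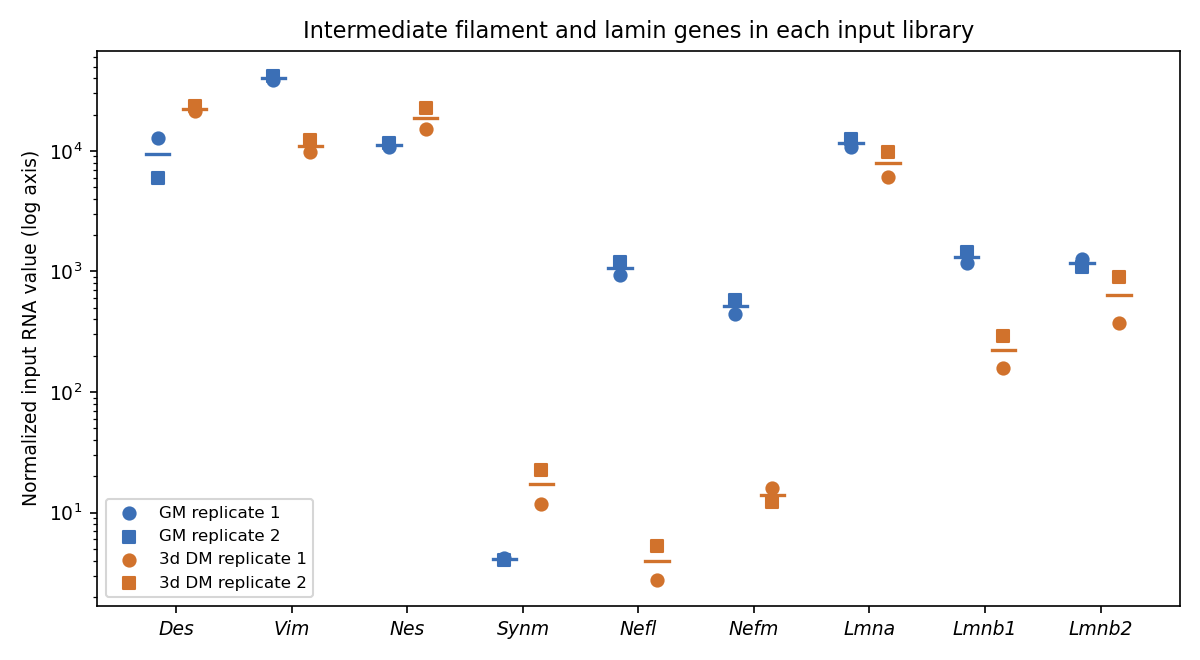
Normalized input RNA value (log axis) of each of the 9 genes in each of the 4 input libraries, GM in blue and 3d DM in orange, circles for replicate 1 and squares for replicate 2, with a bar at the mean of the 2. Vim stood highest in GM and Des in 3d DM, Nefl and Nefm dropped to under 20 in 3d DM, and the 2 Des values in GM lay far apart.

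Vimentin, the main filament protein of mesenchymal cells and myoblasts, had the highest value of the 9 genes in GM and fell in 3d DM. The values were 38643 and 41760 in GM against 9851 and 12292 in 3d DM, a mean of 40201 ± 2204 (SD, n = 2) against 11071 ± 1726. Both 3d DM libraries lay far under both GM libraries, at 0.275 of the GM mean. The log2 difference, 3d DM minus GM, was -1.87 (SE 0.40, limma adjusted p = 4.8e-05) as deposited and -1.64 (adjusted p = 0.012) rescaled. Over 14 alternatives the adjusted p ran from 3.3e-05 to 0.90, the highest with no filter on low values. The call was lost when 3d DM replicate 1 (-1.71, adjusted p = 0.11) or replicate 2 (-2.03, adjusted p = 0.061) was left out, where the lone library is assumed to vary like the others.

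Desmin, the filament protein of differentiated muscle, rose. It stood at 12764 and 5945 in GM and at 21225 and 23528 in 3d DM. The 3d DM libraries were close to each other, and GM replicate 1 was more than 2 times GM replicate 2. The mean was 2.39 times the GM mean, with a log2 difference of 1.36 (95% interval 0.57 to 2.14, limma adjusted p = 0.0061) as deposited and 1.59 (0.72 to 2.46, adjusted p = 0.027) rescaled. The muscle differentiation genes were also higher in GM replicate 1 than in GM replicate 2, with troponin T3 (Tnnt3) at 597 and 111, creatine kinase (Ckm) at 109.9 and 17.1 and the fusion gene Mymk at 698 and 101. The 10 myoblast and myotube markers summed to 14756 and 10913 in GM and to 97419 and 136246 in 3d DM, none of them at 0. Not all of them rose. Mki67, Myf5 (397 and 355 in GM against 58.5 and 121 in 3d DM) and Top2a (3945 and 4606 against 457 and 951) were lower in 3d DM. Myod1 overlapped, at 1713 and 1129 against 1016 and 1645. The part of these markers in the Des difference was not tested. Without GM replicate 2 the difference was 0.81 (adjusted p = 0.41), without 3d DM replicate 1 it was 1.43 (0.26) and without 3d DM replicate 2 it was 1.28 (0.20), and over all 14 alternatives the adjusted p ran from 0.0014 to 0.85.

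Nestin, which cannot form filaments alone and copolymerises with vimentin or desmin, had values of 10827 and 11513 in GM against 15228 and 22549 in 3d DM. Both 3d DM values were above both GM values. The log2 difference was 0.73 (95% interval -0.05 to 1.52, limma adjusted p = 0.24) as deposited, which did not pass the threshold. Rescaled, it was 0.96 (0.36 to 1.56, adjusted p = 0.040), which did, and 3 of 14 alternatives, all of them other scalings, called it, with adjusted p from 0.040 to 1.0.

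Synemin, a large partner of desmin and vimentin, was the member with the lowest value in GM. It was at 4.19 and 4.01 in GM and at 11.9 and 22.4 in 3d DM, all under the minimum of 25.1, and was not tested with the main filter. With no filter the log2 difference was 1.77 (95% interval -1.02 to 4.56, adjusted p = 0.66).

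The neurofilament genes showed the widest gaps between the states. Nefl, the subunit that neurofilaments need to assemble, was at 943 and 1200 in GM and at 2.74 and 5.24 in 3d DM. Its GM mean was 268 times its 3d DM mean, and the log2 difference, understated by the added 1, was -7.78 (SE 0.54, limma adjusted p = 7.4e-44) as deposited and -7.59 (adjusted p = 0.00081) rescaled. Nefm, the medium subunit, was at 443 and 582 in GM and at 16.1 and 12.2 in 3d DM. Its difference was -5.08 (SE 0.52, limma adjusted p = 3.8e-20) as deposited and -4.86 (adjusted p = 0.0020) rescaled. Both genes passed the minimum only through GM and so had to differ, so these small p-values add no support. With each library left out the difference ran from -8.15 to -7.41 for Nefl and from -5.28 to -4.89 for Nefm. Both calls were lost with no filter, at limma adjusted p = 0.072 and 0.081. These were the highest over the 13 alternatives that could be computed for each. Of the 6 neuron markers, Rbfox3 and Elavl4 were listed at 0 in all 4 libraries, Snap25 and Syt1 were at 2.21 or less, and Map2 and Stmn2 were present. Stmn2, a microtubule regulator of growing axons, was 1584 and 1169 in GM against 424 and 298 in 3d DM, and the 6 markers summed to 2027, 1335, 541 and 456. Their part in the neurofilament differences was not tested. An annotated Nefm transcript on the minus strand runs over the Nefl exons, so values of the pair may share reads if strand was not used in counting, which the sources used here do not say.

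Among the lamins, Lmnb1 fell, while Lmnb2 and Lmna did not pass the test. Lmnb1, a B-type lamin that stays farnesylated at the membrane, was at 1185 and 1451 in GM and at 157 and 294 in 3d DM, and the GM mean was 5.85 times the 3d DM mean. The log2 difference was -2.60 (SE 0.44, limma adjusted p = 1.1e-07) as deposited and -2.37 (adjusted p = 0.0037) rescaled. Without 3d DM replicate 1 it was -2.16 (adjusted p = 0.052), in a range of 1.1e-07 to 0.28 over 14 alternatives. The proliferation genes Mki67 and Ccnb1 moved with it, Ccnb1 at 1464 and 1824 in GM against 128 and 290.1 in 3d DM, and their part was not tested.

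Lmnb2, the other B-type lamin, was at 1258 and 1084 in GM against 371 and 902 in 3d DM, with the 3d DM libraries far apart. Its difference of -1.01 (95% interval -1.86 to -0.16, limma adjusted p = 0.093) did not pass, nor did the rescaled -0.78 (adjusted p = 0.096). Lmna, whose product is cut to mature lamin A after farnesylation, was at 10727 and 12421 in GM against 6106 and 9872 in 3d DM. Both 3d DM values were the lower ones, and the difference was -0.57 (95% interval -1.36 to 0.21, adjusted p = 0.40) as deposited and -0.34 (-0.95 to 0.26, adjusted p = 0.35) rescaled. None of the 14 alternatives called either gene.

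**Figure D2:**
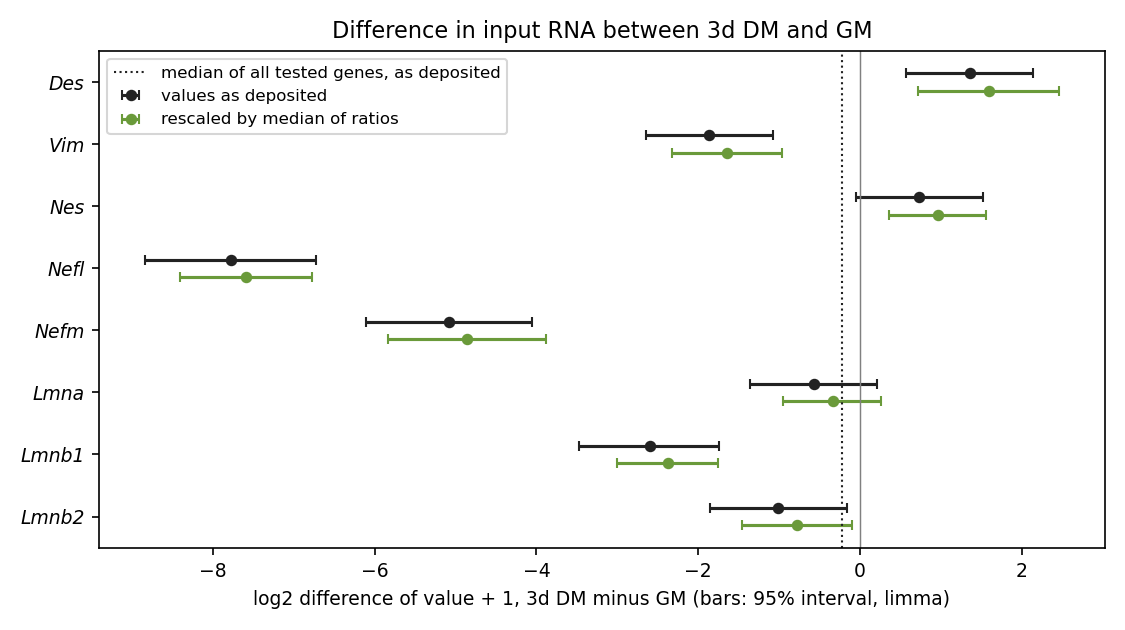
Log2 difference of the value + 1, 3d DM minus GM, of the 8 tested genes with 95% intervals from limma, in black for the values as deposited and in green after median-of-ratios rescaling. Des and Nes lie to the right of 0 and the other 6 to the left, the dotted line marks the median of all tested genes at -0.22, and the Nes interval clears 0 only after rescaling.

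Levels of different genes were compared per kb of the main annotated transcript. In GM the order of the means was Vim (18332 per kb), Lmna (3667), Des (3089), Nes (1823), Lmnb1 (464), Lmnb2 (348), Nefl (317), Nefm (154) and Synm (0.525). In 3d DM it was Des (7390), Vim (5048), Nes (3083), Lmna (2531), Lmnb2 (189), Lmnb1 (79.2), Nefm (4.24), Synm (2.20) and Nefl (1.18). Several neighbours in these orders overlapped between libraries. In GM the Des values per kb (4215 and 1963) enclosed those of Lmna (3399 and 3936), and the Lmnb2 values (373 and 322) overlapped those of Nefl (279 and 355). In 3d DM the values of Nes (2486 and 3681) overlapped those of Lmna (1935 and 3128).

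Ratios within a library do not depend on a scaling between libraries that applies a single factor to each, as the rescaling here does. An adjustment that treats genes unequally would not cancel, and whether the deposited values hold one is not known here. Des over Vim, per kb, was 0.239 and 0.103 in GM against 1.56 and 1.39 in 3d DM, so vimentin led in both GM libraries and desmin in both 3d DM libraries. Of the summed value per kb of the 6 cytoplasmic genes, Vim held 73.4% and 81.3% in GM against 32.1% and 32.8% in 3d DM. Des held 17.6% and 8.38% in GM against 50.1% and 45.5% in 3d DM. The Nes share was 7.36% and 8.03% in GM against 17.8% and 21.6% in 3d DM, and Des over Nes overlapped between the states (2.39 and 1.04 against 2.82 and 2.11). Nefl and Nefm together were a minor part even in GM, with Nefl at 1.16% and 1.52%. The summed value of the 6 genes per kb, as deposited, was 24017 and 23415 in GM against 13994 and 17064 in 3d DM. Unlike the ratios, this sum depends on the scaling between libraries, and it was not rescaled.

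Within the lamins, Lmna over Lmnb1 per kb was 8.16 and 7.71 in GM against 35.0 and 30.3 in 3d DM. Lmna held 81.1% and 82.5% of the 3 genes in GM against 92.1% and 89.4% in 3d DM, and Lmnb1 went from 9.95% and 10.7% to 2.63% and 2.95%. The Lmnb2 share overlapped between the states, at 8.91% and 6.75% against 5.25% and 7.65%. Lmnb2 over Lmnb1 was 0.896 and 0.630 in GM against 2.00 and 2.59 in 3d DM, with the larger ratio in both 3d DM libraries. With 2 libraries against 2, the exact permutation test of any such ratio cannot give a p under 0.33.

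**Figure D3:**
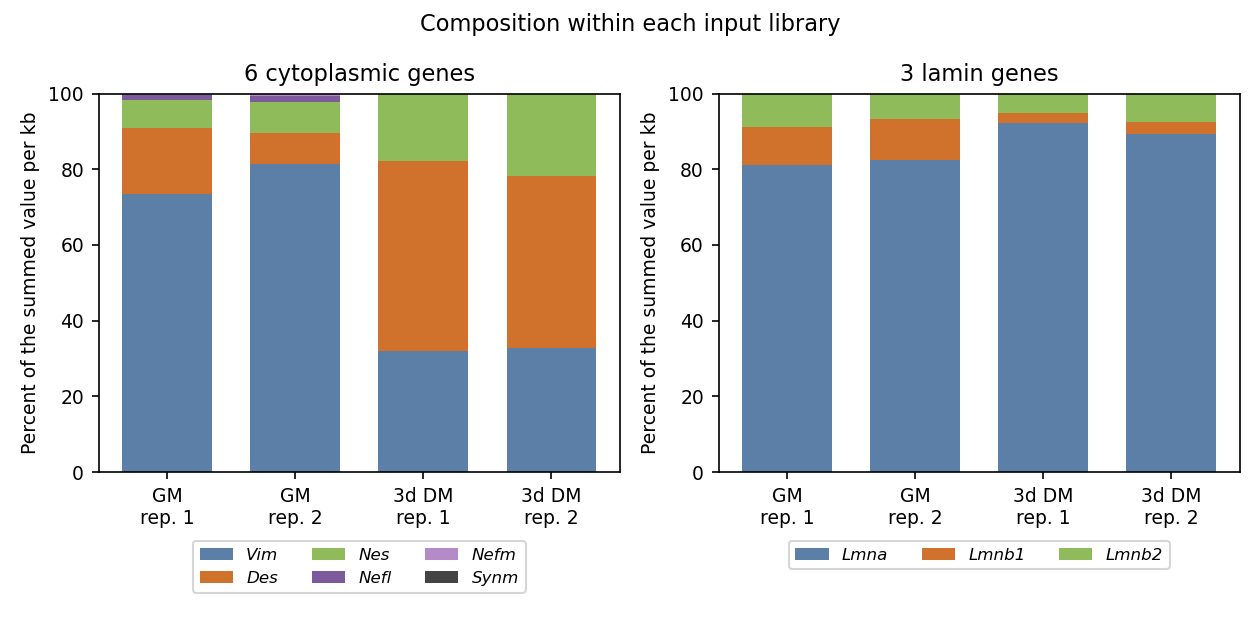
Share (percent) of each gene in the summed value per kb of transcript, 1 bar per input library, for the 6 cytoplasmic genes on the left and the 3 lamin genes on the right. Vim takes 73.4% and 81.3% of the cytoplasmic sum in GM and Des the larger share in both 3d DM libraries, while Lmnb1 shrinks to 2.63% and 2.95% of the lamin sum in 3d DM.

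Genes related to the members were read from 3 lists. Of 16 other intermediate filament genes, 4 passed the minimum, and 4 were listed at 0 in all libraries. Of those tested, 1 was called lower (9.96% of all tested genes) and none higher (7.01%). The median log2 difference of the 4 tested genes was -0.48. The called gene was Krt19, a simple-epithelium keratin without a tail domain, at 315 and 350.2 in GM against 67.5 and 35.3 in 3d DM (log2 difference -2.74, limma adjusted p = 8.6e-07). Its usual type II partner Krt8 was at 2.22 or less and Krt18 was listed at 0. Krt80, at 563, 577, 266 and 682, and Krt14, at 81.6, 209, 65.9 and 120.3, did not pass.

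Of 21 linkers and chaperones of cytoplasmic filaments, 18 were tested, with a median log2 difference of 0.89. As deposited 6 were called higher in 3d DM and 1 lower, against 7.01% and 9.96% of all tested genes. After rescaling 9 were called higher and none lower, against 12.0% and 11.2% of all tested genes. The small heat shock genes split. Hspb7 was at 21.2 and 8.04 in GM against 495 and 392 in 3d DM, Hspb2 rose from 114 and 72.3 to 433 and 698 (log2 difference 2.59, limma adjusted p = 8.6e-07) and Hspb8 from 1009 and 577 to 1830 and 2001 (1.32, adjusted p = 0.014). Hspb1, named after its values were seen as the 1 called lower, was at 8895, 4447, 2666 and 3112 (-1.13, adjusted p = 0.036), a call that was lost after rescaling (adjusted p = 0.080). Filamin C (Flnc), an actin crosslinker of the Z-disc, was at 3468 and 3427 in GM against 8966 and 12063 in 3d DM (1.59, adjusted p = 0.00095), and the spectraplakin Macf1 was at 5306, 3795, 9437 and 10205 (1.13, adjusted p = 0.034). Dystrophin (Dmd) was listed at 0 in both GM libraries and at 100.2 and 40.1 in 3d DM. Hspb7 and Dmd, 2 of the 6 called higher, passed the minimum only through 3d DM and so had to differ. Plectin (Plec), which ties filaments to Z-discs and membranes, was at 10617, 12352, 13328 and 13310 and did not pass (adjusted p = 0.81), and neither did the desmin chaperone Cryab at 3196, 1390, 3533 and 4031 (adjusted p = 0.17).

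Of 26 envelope partners and processing genes of the lamina, all were tested, 3 were called in each direction and the median log2 difference was -0.35. Over all tested genes 7.01% were called higher and 9.96% lower, with a median of -0.22, and these counts lie near those shares. After rescaling 4 were called higher and 5 lower, against 12.0% and 11.2% of all tested genes. The 3 higher genes encode membrane proteins. Tmem38a was at 431 and 108 in GM against 3252 and 3009 in 3d DM (log2 difference 3.85, limma adjusted p = 5.0e-17), Plpp7 at 22.3, 4.03, 227 and 358, and Nup210, a nuclear pore protein, at 1.06, 0.00104, 38.9 and 32.0. Plpp7 and Nup210 were under the minimum in both GM libraries, so they passed it only through 3d DM and had to differ. The 3 lower genes were Tmpo, which encodes lamina-associated polypeptide 2, at 4266, 4109, 739 and 1665 (-1.92, adjusted p = 6.1e-05), and the nesprin genes Syne2, at 577, 395, 94.9 and 129.5 (-2.10, adjusted p = 0.00011), and Syne3, at 531, 590.1, 124 and 282 (-1.58, adjusted p = 0.0051). The lamin B receptor gene Lbr was at 487, 711, 232 and 338 (adjusted p = 0.087), and Zmpste24, the protease of prelamin A, at 1076, 903, 537 and 743 (adjusted p = 0.37).

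m6A was read from 1 peak list per immunoprecipitated library, each called against its own input. A peak is here a set of lines of 1 gene that share at least 1 bp of span. The 9 members held 18 and 14 peaks in GM against 13 and 11 in 3d DM, a difference of -4.0 in the means that the exact permutation test could not call (p = 0.333, the smallest it allows). All genes together held 14267 and 12297 peaks in GM against 14301 and 10925 in 3d DM. Des, Vim, Nes, Lmna and Lmnb2 had a peak in every list, 5 of 9, and 42.6% of tested genes with a symbol did. Synm had none in any list. Nefl had 2 and 1 peaks in GM and none in 3d DM, a pattern of 2.67% of those genes, and Nefm had 2, 1, 1 and 0. In GM replicate 2 a line of the Nefm transcript that runs over Nefl joined Nefm peaks that were otherwise separate. Without that transcript the members held 15 peaks in GM replicate 2 in place of 14. Lmnb1 had 3, 1, 2 and 0. The 3 members that lost their peaks in at least 1 list of 3d DM were also those called lower there with the lowest 3d DM values among the tested members, and the part of input level in these lost peaks was not tested.

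**Figure D4:**
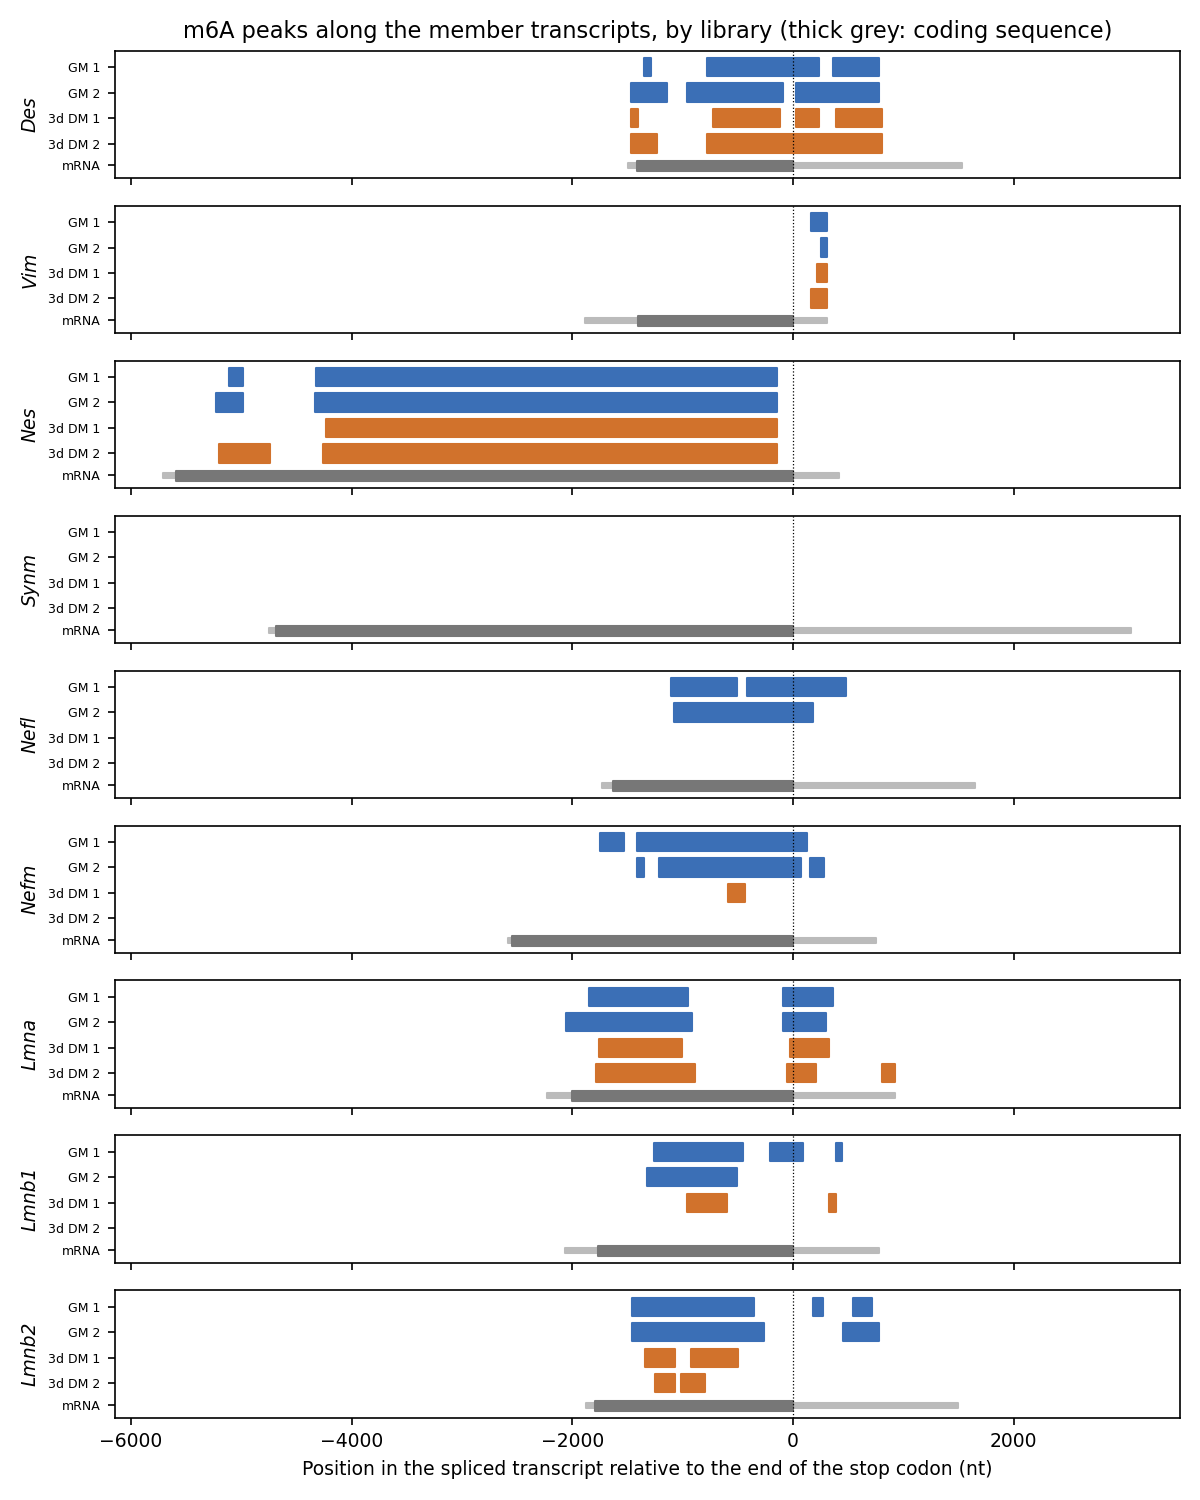
Peaks in each of the 4 lists along the spliced transcript of each gene, placed by distance (nt) from the end of the stop codon, GM in blue and 3d DM in orange, with the coding sequence as thick grey. The Nes peak fills most of its last coding exon in all 4 lists, Vim has only a short peak at the transcript's 3′ end, and the rows of Nefl and Lmnb1 are empty in at least 1 list of 3d DM.

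Along the transcripts the members differed in where the peaks lay. On Nes the peak covered chr3:87975700-87979883, coding sequence of the last exon that ended 147 nt before the end of the stop codon in every list, and peaks took 66.7% to 74.6% of its 6126 nt. A second Nes region, chr3:87971571-87973060, had folds of 1.7, 2.44 and 2.3 in GM and 3d DM replicate 2. The fold enrichment of the last-exon peak was 7.72 and 5.89 in GM against 8.64 and 6.32 in 3d DM, above the list medians of 4.5 to 5.41 over all shared regions. The 4085 nt under a peak in all 4 lists held 28 of the searched letters, 6.85 per kb. Over all genes with a peak the density was 4.46 to 4.90 per kb inside peaks and 3.39 to 3.50 outside. All 11 to 13 peaks of like length (within 10%) also held at least 1 site.

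In the first 3 lists Des had its highest fold in a 3′ UTR peak. That peak, starting 29 to 389 nt after the stop codon, had folds of 4.17 and 4.83 in GM and 3.17 in 3d DM replicate 1, while its rod-coding peak had 1.91, 1.79 and 1.54. In 3d DM replicate 1 a separate peak of 211 nt at the start of the 3′ UTR had a fold of 1.26, the lowest of that list on Des. In 3d DM replicate 2 a single line of 1590 nt spanned both with a fold of 9.46. A further peak over the start of the coding sequence, chr1:75360359-75360689, had folds of 1.25, 3.52, 1.44 and 2.49. The folds of replicates in 1 state thus differed as much as those of the states. Over its 3028 nt, 7 sites lay in peaks of all 4 lists, the 3′ UTR window printed above among them.

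Vim, the member with the most RNA in GM, had 1 short peak in each list. It was the last 61 to 150 nt of the 3′ UTR, chr2:13582677-13582826, with folds of 1.56, 1.23, 1.52 and 2.46, at percentiles 0.615, 0.0664, 1.36 and 6.59 of the regions shared by all lists. None of the 9 sites in the transcript lay in a peak. Peaks of like length held a site in 22.9% (61 nt) to 48.0% (150 nt) of cases.

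Nefl peaks lay over the rod codons and into the 3′ UTR, within chr14:68084491-68087929. In GM replicate 1 they were 2, with folds of 2.6 over coding sequence alone and 6.11 over the stop codon, and in GM replicate 2 a single peak had 4.82. On Nefm the main peak covered the tail codons, with folds of 9.77 and 5.32 in GM. Although it was long it was poor in the searched letters, with 1 site in 1542 nt in GM replicate 1 and none in 1281 nt in GM replicate 2, where 99.7% and 98.0% of peaks of like length held at least 1. The Nefm peak of 3d DM replicate 1 was 150 nt long, with a fold of 12.7 and p = 0.00123 from the authors' caller, on an input value of 16.1.

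Lmna had 2 regions with a peak in all 4 lists. The one over the rod codons, chr3:88484976-88503160, had folds of 3.31, 3.04, 2.97 and 3.82, and the one around the lamin A stop codon, chr3:88481714-88482405, had 2.44, 2.81, 2.81 and 2.60. The latter folds were the closest together of the 7 regions shared by all lists. A short peak at chr3:88483205-88483265, the 3′ end of the shorter annotated variants that encode lamin C, appeared in GM replicate 2 (1.63) and 3d DM replicate 2 (2.17) only. A further 3′ UTR peak at chr3:88481148-88481267 was called in 3d DM replicate 2 alone, with a fold of 1.6.

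Lmnb2 had a peak region over rod and tail codons, chr10:80903556-80909910, with highest folds of 4.88, 4.87, 3.81 and 4.18. The highest folds in GM were both above those in 3d DM, as in 1 direction or the other for 31.0% of shared regions. The region was a single peak in each GM list and 2 separate peaks in each 3d DM list. On the main transcript the folds were 4.71 and 4.87 in GM. There they were 2.86 and 3.28 in 3d DM replicate 1 and 2.88 and 3.65 in 3d DM replicate 2. Peaks covered 40.8% and 45.1% of the transcript in GM against 20.7% and 11.5% in 3d DM, and sites in them numbered 13, 13, 6 and 4, or 8.55 to 10.3 per kb. The 3′ UTR peak chr10:80902080-80902400 was called in GM only, with folds of 2.1 and 2.21. Input values of Lmnb2 were 1258 and 1084 in GM against 371 and 902 in 3d DM. Their part in the peak coverage and in the GM-only peak was not tested.

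Lmnb1, at chr18:56707813-56753424, had its peak over the rod codons with folds of 3.57, 3.91 and 3.27 in GM and 3d DM replicate 1 and no line in 3d DM replicate 2. Its 3d DM replicate 1 peak was 360 nt long against 808 and 809 nt in GM, and the part of the lower input in this length was not tested.

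Peak strength was compared at the 7 member regions called in all 4 lists, within a limma fit of 6021 such regions. A region joins the lines of a gene, over all lists, that share at least 1 bp of span. Its value in a list is the highest fold among its lines there, so it need not be the strength of a single matched peak. The Des region with the 3′ UTR also holds the rod-coding peaks. None of the 7 passed, nor did any region (0% at an adjusted p under 0.05), with 205 regions and no member region at an unadjusted p under 0.05. The log2 difference in fold ranged from -0.29 for Lmnb2 (95% interval -1.18 to 0.60) to 0.48 for Vim (-0.21 to 1.17), and the adjusted p of the 7 was 0.995 to 0.998. For Nes it was 0.13 (-0.96 to 1.23), for the Des region with the 3′ UTR 0.29 (-0.86 to 1.44) and for the lamin A stop codon 0.05 (-0.69 to 0.78). The intervals leave room for changes in either direction, so equal strength in both states is not shown.

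**Figure D5:**
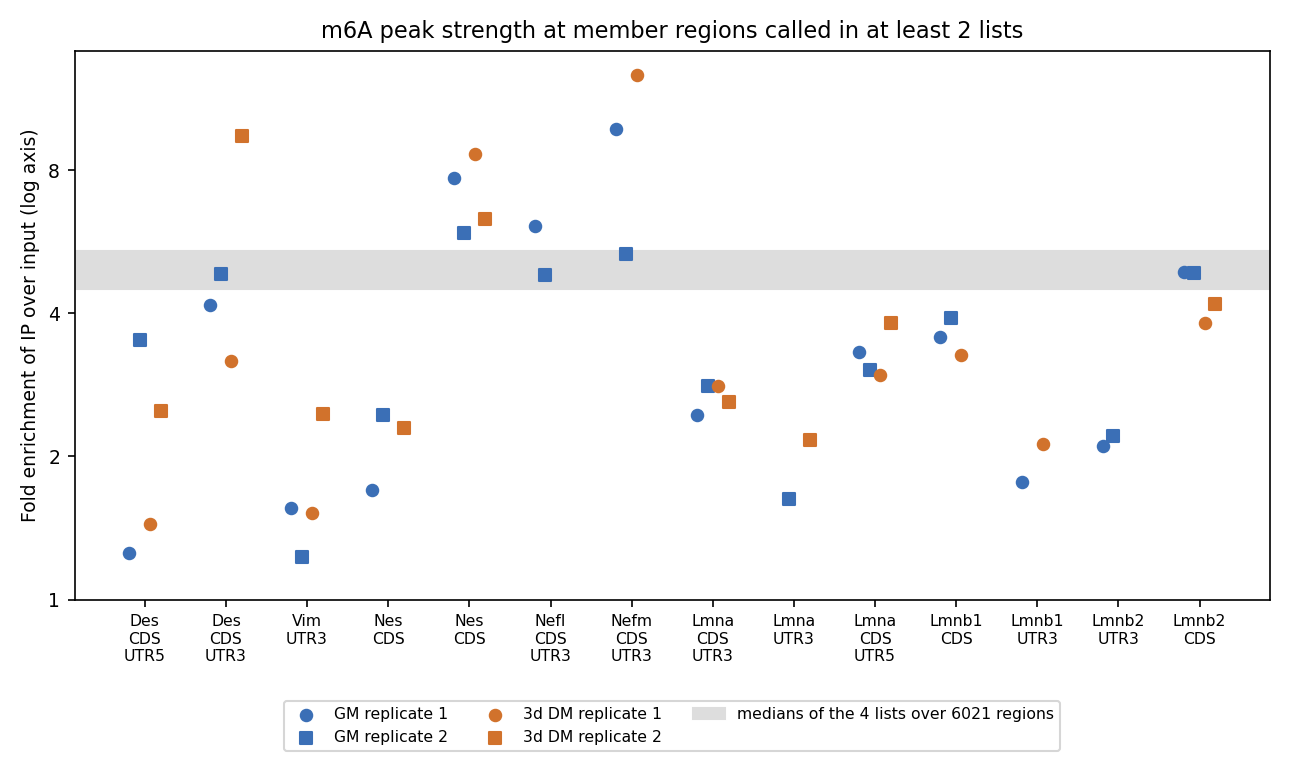
Fold enrichment of immunoprecipitated over input RNA (log axis) at the member regions called in at least 2 of 4 lists, GM in blue and 3d DM in orange, with the range of the 4 lists' medians over 6021 shared regions in grey. The last-exon Nes region lies above the grey band in all 4 lists, and the other Nes region, Vim, the Lmna regions and the Des 5′ region lie under it. GM and 3d DM points are mixed at every region called in all 4 lists except that of Lmnb2.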

How the data were processed

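Poly(A) RNA of C2C12 myoblasts was sequenced as input and after m6A immunoprecipitation, with 2 libraries of each kind in GM and in 3d DM, grouped by the labels. The authors aligned reads to mm10 with HISAT2 (2.1.0) and called peaks by exomePeak, per sample at P of at most 0.05. Each peak list deposited by the authors gives a p-value and a fold enrichment (a ratio to input). The expression table deposited by the authors holds a normalized signal, named for TMM and prepared in edgeR. Its values are not whole, so no reads could be recovered, depth is unknown, and no counting interval is given. The counter and its use of strand are not given in the sources used here.

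Symbols were assigned by Entrez identifier from RefSeq (98.7% of tested genes). The difference in log2(value + 1) was tested with limma (3.58.1, R 4.3.3) with trend and Benjamini-Hochberg adjustment over the 11406 genes that reached 2 cpm in 2 or more libraries, since the deposited values are not the counts that the authors' own test needs. Log2 folds of the 6021 regions in all 4 lists were tested likewise, and peak numbers by a two-sided exact permutation test. Fits were tested on simulated data. Transcripts were those of GENCODE M21, starts are 1-based, and windows were read from GRCm38 (mm10). Some windows are not reported here. Of the windows, 126 matched the genome and 8 crossed an exon junction. Protein sequences and promoters were not used here.

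The members and the related lists were chosen with earlier results of these data known. All members are named. From each related list the text names up to 6 called genes with an absolute log2 difference of at least 1, and any other related gene was named after its values were seen. Alternatives were other filters, pseudocounts, scalings, peak thresholds and overlaps, limma without trend, a replicate block and each library left out. A filter on the mean level, Nefm without the transcript over Nefl, and exon blocks with centred folds were added after seeing the data. Python 3.11.15 (numpy 2.4.6, pandas 2.3.3) and matplotlib 3.10.9 were used.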

Additional observations from a re-analysis of the deposited data

How the results depend on the processing

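The 5 member calls were 5 or 6 under the other pseudocounts, scalings, limma without trend and the mean-level filter. They fell to 3 when 3 libraries had to reach the minimum, since Nefl and Nefm then went untested, and to 0 of 9 by limma with no filter, where 3 members had an unadjusted p under 0.05. With each library left out they numbered 2 to 5. Over all genes, 1936 calls (800 higher in 3d DM) became 2644 (1369) by median of ratios, 2647 (1361) by trimmed mean, 154 (80) with no filter, and 145 to 1252 with a library left out. No member changed direction. Replicate numbers were shared by the labels only. Same-numbered libraries deviated together weakly (correlation 0.29 over genes and 0.131 over regions, 2 pairs). With a replicate block 5 members and 1298 genes were called, and 0 member regions. The difference in member peaks kept its sign under each of 9 alternatives, between -6.0 and -2.0. No member region was called under any of 11 alternatives. Unknown depth limits Synm, and Nefl and Nefm in 3d DM.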

Other observations

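Peak numbers on the related genes differed between the lists in several ways, given here as values without a test. Hspb7 had no peak in GM and 2 and 3 peaks in 3d DM. Syne2 had 11 and 2 peaks in GM against 1 and 0 in 3d DM, and Lemd2 had 1 and 3 in GM and none in 3d DM. Input values of Hspb7 were 21.2 and 8.04 in GM against 495 and 392 in 3d DM. Those of Syne2 were 577 and 395 against 94.9 and 129.5, and those of Lemd2 were 562 and 489.7 against 358 and 681. The part of input level in these peak numbers was not tested. The giant linker genes had several peaks in every list, with 25, 16, 11 and 20 on Dst and 5, 5, 10 and 9 on Plec. Of the 26 lamina partners and processing genes, 12 had a peak in every list, as did 8 of the 21 linkers and chaperones and 1 of the 16 other intermediate filament genes. Over tested genes with a symbol that share was 42.6%, and only 4 of the 16 passed the minimum. Among the 26 lamina partners and processing genes, Emd, Lbr, Fntb, Casp6 and Nup210 had no peak in any list.

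Nefl over Nefm per kb was 2.1 and 2.03 in GM against 0.169 and 0.424 in 3d DM, where both genes were under the minimum of 25.1.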
